A study of Mus musculus with 33 samples.

Results

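Ferritin, Hmox1 and 8 other genes of iron handling were followed in mouse tongue and in sorted costal cells in which the imprinted gene Zac1 (Plagl1) was expressed from both alleles or, in wild type, from 1 allele. The 10 genes were Fth1 and Ftl1 (ferritin), Hmox1 and Blvrb (haem breakdown), Tfrc, Slc11a2 and Slc11a1 (uptake and import), Slc40a1 (export), and Aco1 and Ireb2 (control of the others by binding their RNA). They were found by symbol among 27825 genes of each tongue table and 25965 genes of the costal cell table, and each was listed once in all 4 tables. They were chosen by known role together with earlier results of these same tables; which of the measured values weighed in the choice is not recorded, so every level, difference and p-value of theirs is a description of these libraries.

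The biallelic groups came from Zac1o knockout mice and the comparison groups from wild type mice; no other allele or agent is labelled. Each genotype had 3 tongues at E13.5, 3 at P0 and 3 at P20. At E18.5, cells of the ribcage that carried Cd24a and Cd200 on their surface, the labels' gate for prehypertrophic chondrocytes, were sorted from 6 biallelic embryos (numbered 1 to 6) and 5 wild type embryos (numbered 7 to 11 and called animals here), with around 2000 cells in each pool. For biallelic animals 1 to 4 the labels list 2 libraries each and the table holds 1 column. Values are RPM, the reads of a gene scaled to the same total in every library, and are not corrected for gene length, so genes are compared with each other only per kilobase of transcript. RNA of E13.5 tongues was prepared with another kit than that of P0 and P20 tongues, so stage and preparation cannot be told apart for E13.5. The costal libraries held polyadenylated RNA amplified from few cells, whereas the tongue libraries held RNA depleted of ribosomal RNA, and values of both are set side by side without a test.

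Ferritin is a hollow shell of heavy (Fth1) and light (Ftl1) chains that stores iron as an oxide in its core. Hmox1 opens haem and frees its iron. The transferrin receptor Tfrc carries iron on transferrin into endosomes, and the transporters Slc11a2 and Slc11a1 bring iron into the cytosol. Ferroportin, the product of Slc40a1, is the known exporter of iron from vertebrate cells. When iron is scarce, the proteins encoded by Aco1 and Ireb2 bind hairpins called iron-responsive elements, which blocks translation from a 5′ untranslated region and protects an mRNA from decay when the hairpins lie in its 3′ untranslated region. Macrophages that clear red cells are known for high levels of Hmox1, ferritin and ferroportin, and Slc11a1 for its place in the phagosome membrane of myeloid cells.

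On GRCm38 the ferritin genes lie at chr19:9982703-9985092 (Fth1, plus strand, ENSMUSG00000024661) and chr7:45457944-45459884 (Ftl1, minus strand, ENSMUSG00000050708), and the haem breakdown genes at chr8:75093591-75100596 (Hmox1, plus strand, ENSMUSG00000005413) and chr7:27447978-27466144 (Blvrb, plus strand, ENSMUSG00000040466). The importers lie at chr16:32608920-32632794 (Tfrc, plus strand, ENSMUSG00000022797), chr15:100387898-100425072 (Slc11a2, minus strand, ENSMUSG00000023030) and chr1:74375203-74386062 (Slc11a1, plus strand, ENSMUSG00000026177). The exporter gene lies at chr1:45908070-45925594 (Slc40a1, minus strand, ENSMUSG00000025993), and the genes of the hairpin-binding proteins at chr4:40143081-40198338 (Aco1, plus strand, ENSMUSG00000028405) and chr9:54863755-54912534 (Ireb2, plus strand, ENSMUSG00000032293).

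The hairpins are shown because they are the RNA signal read by the proteins of Aco1 and Ireb2. Transcripts of the GENCODE release M21 annotation (GRCm38) were searched on the transcript strand for a C, 5 bases, the loop CAGTGN and 5 bases that pair with the 5 before the loop, with G-T pairs allowed. Each line gives 30 bases from the mRNA strand, with the bulged C and the loop of 6 bases in capitals.
Fth1, 5′ untranslated region, chr19:9982732-9982761, plus strand: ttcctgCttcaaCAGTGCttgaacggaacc
Ftl1, 5′ untranslated region, chr7:45459778-45459807, minus strand: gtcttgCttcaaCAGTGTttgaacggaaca
Slc40a1, 5′ untranslated region, chr1:45925464-45925493, minus strand: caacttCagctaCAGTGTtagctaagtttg
Tfrc, 3′ untranslated region, chr16:32631219-32631248, plus strand: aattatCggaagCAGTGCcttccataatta
Tfrc, 3′ untranslated region, chr16:32631598-32631627, plus strand: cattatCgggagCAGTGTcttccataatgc
Tfrc, 3′ untranslated region, chr16:32631663-32631692, plus strand: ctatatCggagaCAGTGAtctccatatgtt
Tfrc, 3′ untranslated region, chr16:32631710-32631739, plus strand: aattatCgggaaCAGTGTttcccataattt
Fth1, Ftl1 and Slc40a1 held 1 match each, in the 5′ untranslated region, and Tfrc held 4, all in the 3′ untranslated region. Over 22527 coding genes, 31 (0.138%) had a match in a 5′ untranslated region and 144 (0.639%) in a 3′ untranslated region. A match is a run of letters, not a measured binding site. The other 6 genes had no match in their listed transcripts. The search asked for all 5 pairs and this loop, so a hairpin of another form would be missed. No match therefore does not mean that a gene has no such element. The libraries measure RNA, so control of translation through these hairpins was not measured.

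Read totals were 36832717 to 92249098 per library in the tongues and 2938462 to 15689559 in the costal cells, so 3 reads stood for 0.0325 to 0.0814 RPM in the tongues and for 0.191 to 1.02 RPM in the costal cells (counting error only). Plagl1 was higher in every biallelic group, at 203 against 87.6 RPM at E13.5, 473 against 231 at P0, 64.9 against 26.2 at P20 and 27.9 against 8.94 in the costal cells (means). With limma over all tested genes (Benjamini-Hochberg adjusted p under 0.05), the genotype comparison called 0 of 11869 genes at E13.5, 2 of 12489 at P0, 0 of 12693 at P20 and 0 of 11127 in the costal cells. At an unadjusted p under 0.05 those counts were 386, 412, 286 and 1298. P-values measure the spread between these libraries; the labels give neither litter nor sex.

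The sorted cells were labelled costal chondrocytes, and the values go only partly with that label. A fixed list of 17 chondrocyte markers, 16 of them in the table, summed to 384 to 1047 RPM in biallelic and 231 to 619 RPM in wild type animals, and its leading gene Col2a1 reached 245 to 760 RPM and 154 to 433 RPM. A list of 15 macrophage markers, 14 of them in the table, summed to 6152 to 7581 RPM in biallelic and 4363 to 7031 RPM in wild type animals, led by the myeloid co-receptor Cd14 at 2352 to 3107 RPM and 1669 to 2524 RPM. Its members Vsig4 and Clec4f stayed below 1 RPM in every animal. Neutrophil markers summed to 149 to 336 RPM in the 6 biallelic animals and in wild type animals 10 and 11 to 328 and 222 RPM, but to 2182, 1338 and 1937 RPM in wild type animals 7, 8 and 9. These 3 animals therefore stand apart, and results in the costal cells are given with and without them. Summed erythroid markers, 11 of 18 in the table, were at 3.94 to 67.9 RPM and 10.3 to 95.2 RPM. In pooled cells, a larger share of a cell type and more RNA per cell of that type cannot be told apart.

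In the costal cells the RNA of ferritin and Hmox1 was among the most abundant of all. Per kilobase of transcript, Fth1 ranked 1 and Ftl1 ranked 2 among 21013 genes in each of the 11 animals, and Hmox1 ranked 3 to 8 in biallelic animals and 4 to 15 in wild type animals. Slc11a1 ranked 153 to 317 in biallelic and 157 to 594 in wild type animals. Further down were Blvrb (493 to 788 and 537 to 785), Slc40a1 (770 to 1634 and 711 to 2696), Slc11a2 (2089 to 2914 and 2260 to 3979) and Ireb2 (3415 to 5280 and 3670 to 6142). Aco1 and Tfrc had the lowest median levels, at ranks 4997 to 7437 and 6324 to 8599 in biallelic animals, against 3659 to 8433 and 3420 to 8351 in wild type animals. In that order, the per-kilobase ranges of Fth1, Ftl1 and Hmox1 did not overlap, nor did those of Hmox1 and Slc11a1, while Slc11a1 overlapped Blvrb, Blvrb overlapped Slc40a1, Slc40a1 overlapped Slc11a2, and Slc11a2, Ireb2, Aco1 and Tfrc overlapped each other.

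Fth1, the chain that oxidises iron on entry, had 28624, 25584, 21908, 27546, 24895 and 22867 RPM in biallelic animals 1 to 6, against 26011, 20975, 21356, 25240 and 17330 RPM in wild type animals 7 to 11. The groups overlapped, and the lowest animal was wild type animal 11. The means were 25237 ± 2598 RPM in biallelic and 22182 ± 3524 RPM in wild type animals (SD, n = 6 and 5). Ftl1, the light chain that helps form the iron core, averaged 8685 ± 1194 and 8409 ± 1166 RPM, with 7087 to 10290 RPM in biallelic and 7433 to 10258 RPM in wild type animals. The fitted differences, biallelic minus wild type on the log2 scale, were 0.19 for Fth1 (SE 0.24, adjusted p = 0.729) and 0.05 for Ftl1 (SE 0.20, adjusted p = 0.932). Without wild type animals 7, 8 and 9 they were 0.26 for Fth1 and -0.14 for Ftl1. Both groups of animals overlapped for both chains.

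Hmox1 had 5797, 5423, 6528, 5899, 3194 and 3904 RPM in biallelic animals 1 to 6, against 2546, 2673, 2022, 6534 and 5293 RPM in wild type animals 7 to 11. The 3 lowest values were those of wild type animals 7, 8 and 9, and wild type animals 10 and 11 lay within the biallelic range. The fitted difference was 0.53 (SE 0.31, adjusted p = 0.479); without wild type animals 7, 8 and 9 it was -0.24 (adjusted p = 0.95), so its sign rests on these 3 animals. Without biallelic animals 1 to 4, whose columns stand for 2 labelled libraries each, it was 0.04. Slc11a1, which moves metal ions out of the phagosome, had 489, 434, 418, 536, 330 and 571 RPM in biallelic animals, against 244, 265, 179, 511 and 566 RPM in wild type animals. Its 3 lowest values again belonged to wild type animals 7, 8 and 9, and the order of the other animals differed from that for Hmox1. Its difference was 0.51 (SE 0.27, adjusted p = 0.455), and -0.24 (adjusted p = 0.95) without them.

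**Figure D1:**
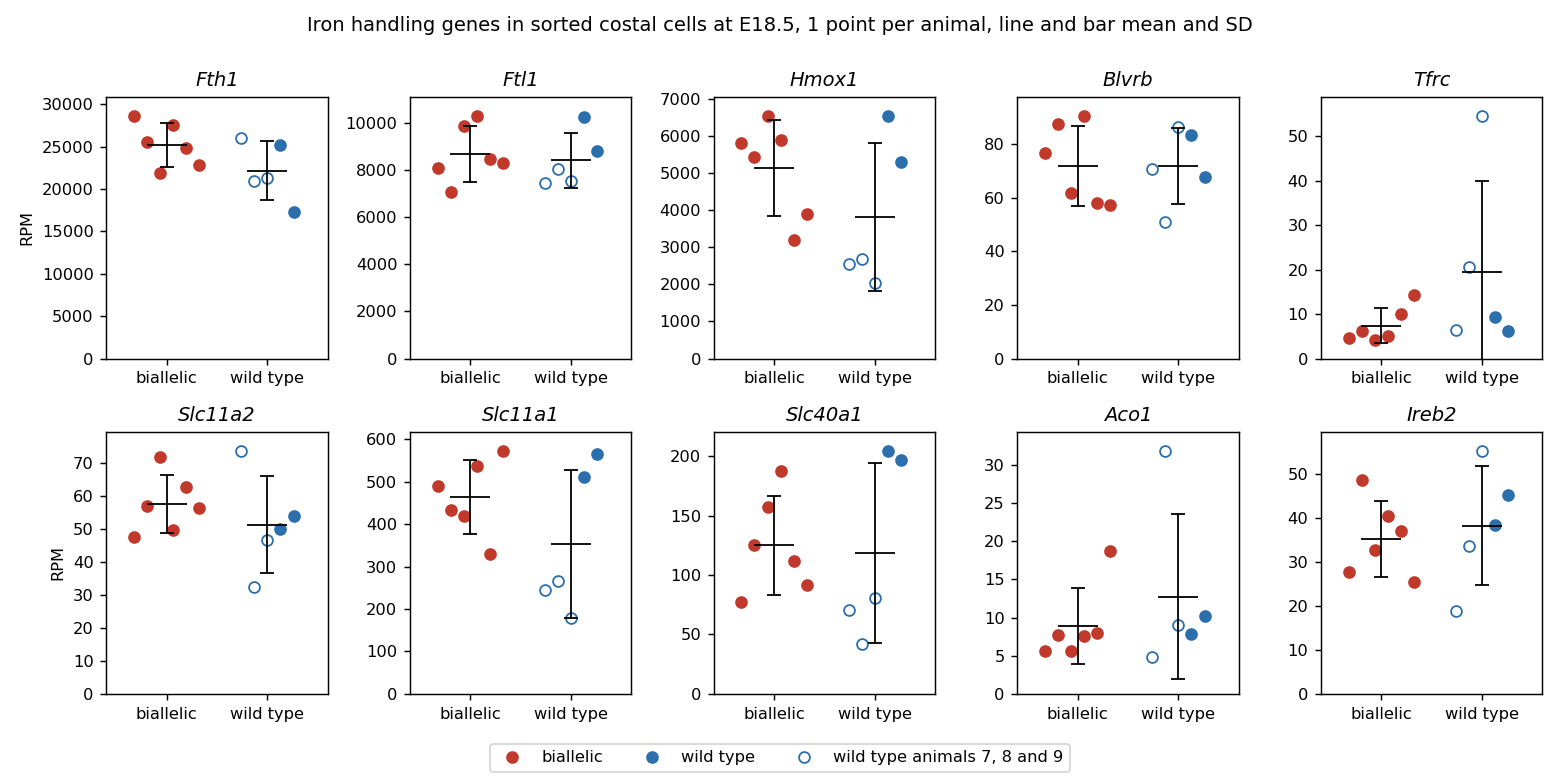
RPM (y axis, from 0) of the 10 genes in sorted costal cells, biallelic animals left and wild type animals right, 1 point per animal, with the mean and SD as line and bar (bars cut at 0) and wild type animals 7, 8 and 9 as open points. Open points are the 3 lowest for Hmox1 and Slc11a1, and both groups overlap in every panel.

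Slc40a1, the iron exporter, had 76.9, 125, 157, 188, 111 and 91.5 RPM in biallelic animals 1 to 6, against 70.3, 42.0, 80.9, 204 and 196 RPM in wild type animals 7 to 11. Wild type animals 10 and 11 were the highest of all, and animals 7 and 8 the lowest. The difference was 0.27 (SE 0.38, adjusted p = 0.765), and -0.75 (unadjusted p = 0.026, adjusted p = 0.95) without wild type animals 7, 8 and 9. Blvrb, a reductase of haem breakdown, was nearly level, at 72.0 ± 15.0 RPM in biallelic and 71.9 ± 14.2 RPM in wild type animals, with a difference of 0.00 (SE 0.19), and -0.09 without these 3 animals. The macrophage marker sum of wild type animals 7, 8 and 9 was 5318, 4922 and 4363 RPM and that of the other 8 animals 6152 to 7581 RPM. It was thus lowest in the 3 animals with the lowest Hmox1 and Slc11a1, and its part in these values was not tested.

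**Figure D2:**
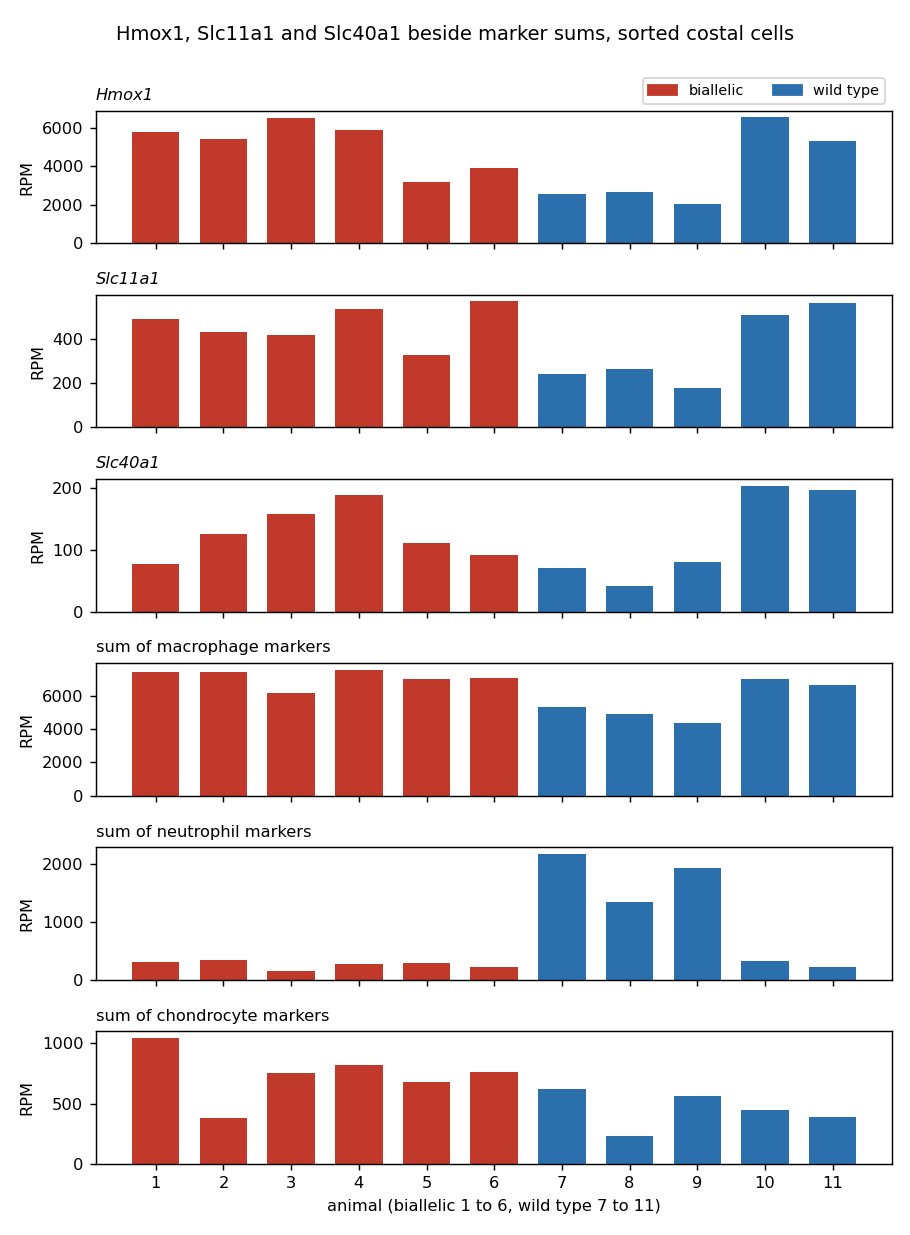
RPM (y axes, from 0) of Hmox1, Slc11a1 and Slc40a1 above the summed RPM of macrophage, neutrophil and chondrocyte markers, with 1 bar per animal, biallelic animals 1 to 6 left of wild type animals 7 to 11. Wild type animals 7, 8 and 9 have the lowest Hmox1, Slc11a1 and macrophage sums and neutrophil sums of 2182, 1338 and 1937 RPM.

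The transferrin receptor Tfrc was scarce in these cells and uneven. It had 4.65, 6.25, 4.09, 5.08, 10.1 and 14.3 RPM in biallelic animals 1 to 6, against 6.38, 20.5, 54.6, 9.38 and 6.13 RPM in wild type animals 7 to 11. Wild type animals 8 and 9 were the 2 highest and the rest overlapped. The difference of -0.99 (SE 0.54, adjusted p = 0.456) was -0.19 (adjusted p = 0.97) without wild type animals 7, 8 and 9. Slc11a2, the importer of ferrous iron in gut and endosomes, averaged 57.5 ± 8.76 RPM in biallelic and 51.3 ± 14.8 RPM in wild type animals (difference 0.20, SE 0.20). Aco1, the cytosolic aconitase that binds hairpins when it lacks its iron-sulfur cluster, ranged from 5.57 to 18.8 RPM in biallelic and from 4.85 to 31.8 RPM in wild type animals, and Ireb2 from 25.4 to 48.6 RPM and from 18.9 to 55.1 RPM. Their differences were -0.34 (SE 0.45) and -0.07 (SE 0.26). Without wild type animals 7, 8 and 9 the values were 0.14 for Slc11a2, -0.15 for Aco1 and -0.28 for Ireb2.

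Of the 10 genes, 0 passed the threshold in the costal cells, where 0% of all tested genes did. None of the 10 had groups without overlap, against 0.872% of all tested genes. Their median difference was 0.12 beside -0.11 over all 11127 genes, and both medians moved with the scaling: after centring each library on its median they were 0.35 and 0.12. Under that centring Ireb2 changed sign (-0.07 uncentred, 0.16 centred). Values near 0 also changed sign under other scalings, Ftl1 to -0.04 and Ireb2 to 0.05 under quantile normalization, and Ftl1 to -0.01 and Blvrb to -0.06 when scaled to the total of the listed genes. Without wild type animals 7, 8 and 9 the median of the 10 genes was -0.17.

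**Figure D3:**
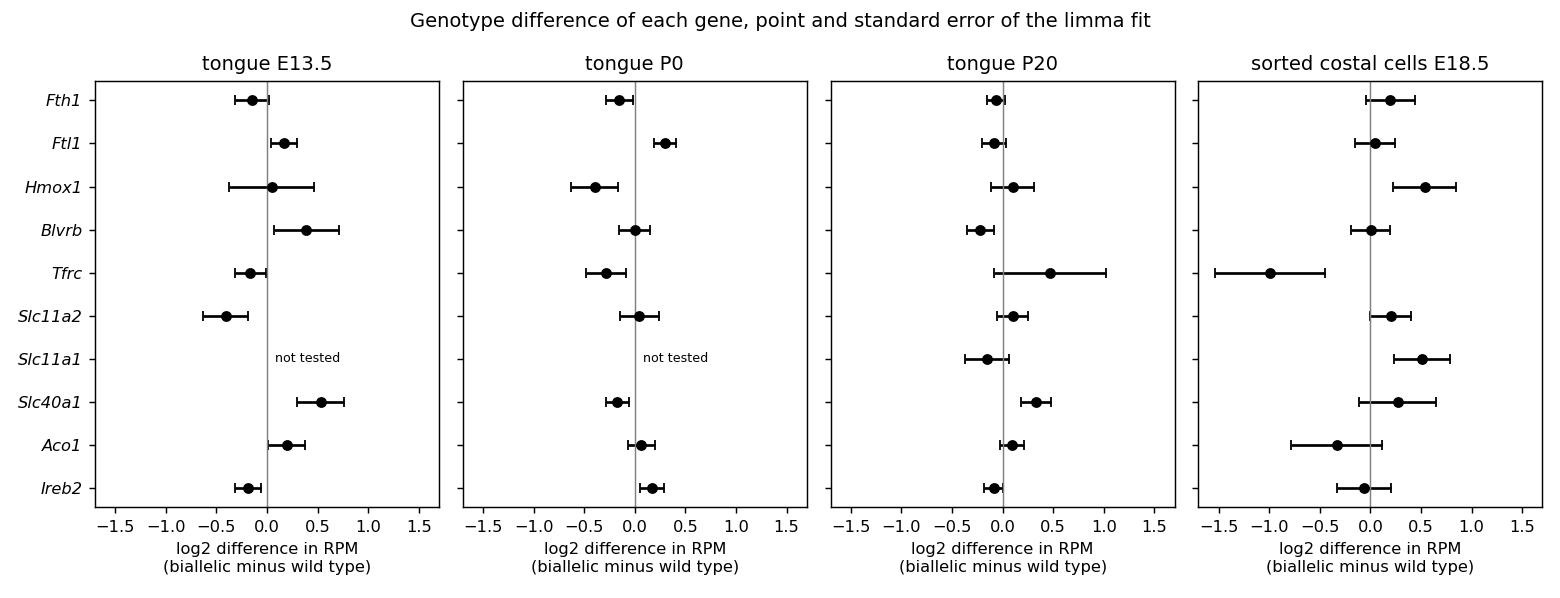
Log2 difference in RPM, biallelic minus wild type (x axis), of each gene (rows) in the 3 tongue stages and the costal cells, as limma estimate with its standard error. Estimates lie between -0.99 (Tfrc, costal cells) and 0.53 (Slc40a1 at E13.5 and Hmox1 in costal cells), and none passed the threshold.

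RPM of ferritin and Hmox1 was far lower in the tongue than in the costal cells. The 2 sets differed in alignment program as well as in library type. Listed genes held 32.1% to 37.6% of the reads in tongue libraries and 55.4% to 65.8% in costal libraries. Per kilobase, Fth1 lay between 12.4 and 18.7 RPM in E13.5 tongues, between 23.8 and 32.8 RPM in P0 tongues and between 64.8 and 71.9 RPM in P20 tongues, against 11600 to 19159 in the costal cells. Ftl1, whose reads may be shared with copies, was at 17.3 to 20.3, 5.42 to 7.03 and 7.14 to 9.13 RPM per kilobase at the 3 stages. In the costal cells it was at 7321 to 10630. Hmox1 was at 1.49 to 4.79, 3.39 to 6.66 and 4.30 to 7.23 RPM per kilobase at the 3 stages, against 1289 to 4165 in the costal cells. Aco1 and Ireb2 had overlapping levels in both, at 3.47 to 9.43 and 4.14 to 7.37 RPM per kilobase in the tongues and 1.26 to 8.29 and 3.27 to 9.56 in the costal cells. Tfrc ran the other way, at 5.97 to 32.5 RPM per kilobase over the tongues and 0.837 to 11.2 in the costal cells. Summed macrophage markers in the tongues were 19.3 to 90.1 RPM. Neutrophil markers summed to at most 1.93 RPM there, with Ly6g at 0 reads in every tongue library. Skeletal muscle markers, set beside the tongue label, summed to 523 to 954 RPM in E13.5, 27883 to 34289 RPM in P0 and 22012 to 35212 RPM in P20 libraries.

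Fth1 RNA rose at each step of tongue growth in both genotypes. Biallelic tongues had 21.4, 18.6 and 20.1 RPM at E13.5, 45.6, 36.5 and 35.5 RPM at P0 and 102, 96.9 and 102 RPM at P20. Wild type tongues had 28.0, 19.3 and 20.2 RPM, 41.5, 49.0 and 39.9 RPM, and 107, 107 and 101 RPM at the same stages. No library of a later stage overlapped an earlier one, and the genotypes overlapped at each stage. In 1 limma fit of all 18 tongue libraries over 13663 genes, Fth1 rose from E13.5 to P0 by 0.96 on the log2 scale in biallelic (SE 0.13, adjusted p = 5.71e-06) and by 0.96 in wild type tongues (SE 0.13, adjusted p = 5.32e-06). From P0 to P20 it rose by 1.36 in biallelic (SE 0.13, adjusted p = 1.02e-06) and by 1.28 in wild type tongues (SE 0.13, adjusted p = 2.23e-06).

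The light chain did not follow the heavy chain. Ftl1 had 19.7, 19.3 and 19.5 RPM in biallelic tongues at E13.5, against 18.2, 17.1 and 16.7 RPM in wild type tongues. At P0 it had 6.81, 6.50 and 6.55 RPM in biallelic and 5.45, 5.24 and 5.44 RPM in wild type tongues, and at P20 7.59, 6.91 and 8.48 RPM and 7.54, 8.84 and 8.001 RPM. All biallelic tongues were above all wild type tongues at E13.5 and at P0, and the groups overlapped at P20. The genotype difference was 0.17 at E13.5 (SE 0.13), 0.30 at P0 (SE 0.11, unadjusted p = 0.0241, adjusted p = 1) and -0.09 at P20 (SE 0.12). From E13.5 to P0 Ftl1 fell by 1.56 in biallelic (adjusted p = 9.51e-10) and by 1.69 in wild type tongues (adjusted p = 3.77e-10), SE 0.10 each. From P0 to P20 it rose in wild type tongues (0.59, adjusted p = 0.000266) and missed the threshold in biallelic tongues (0.21, adjusted p = 0.114), and the difference between these 2 changes was -0.39 (SE 0.15, unadjusted p = 0.0177, adjusted p = 1).

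Ftl1 values are uncertain because near-identical copies could take some of its reads, and how the counting treated such reads is not stated. Of 7 genes that match its transcript at 95% identity or more over at least 200 bases, 2 are listed in the tables, and the one with reads in the tongue, Gm10116 (Ftl1-ps1, 99.56% identity over 910 bases), had 15.5 to 19.6 RPM at E13.5, 3.54 to 5.44 RPM at P0 and 8.23 to 11.9 RPM at P20. It thus held 47.7% to 50.1%, 39.4% to 46.9% and 54.4% to 61.1% of the summed RPM of both genes at these stages, and 0.635% to 6.57% in the costal cells. Summed with its copy, Ftl1 had 37.7 to 39.0 RPM in biallelic and 32.6 to 35.0 RPM in wild type tongues at E13.5, 11.002 to 12.2 RPM and 8.86 to 10.2 RPM at P0, and 15.1 to 20.4 RPM and 18.47 to 20.5 RPM at P20. The order of the groups and stages was therefore the same for the sum as for Ftl1 alone, but the size of the changes was not. From P0 to P20 in biallelic tongues, Ftl1 alone went from 6.50 to 6.81 RPM to 6.91 to 8.48 RPM. The sum went from 11.002 to 12.2 RPM to 15.1 to 20.4 RPM. The sum was not fitted, so the missed threshold in biallelic tongues at this step holds for Ftl1 alone. The other 9 genes had no copy that met this limit among the transcripts of GENCODE release M21. Copies outside that annotation were not searched, for Fth1 as for the rest.

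**Figure D4:**
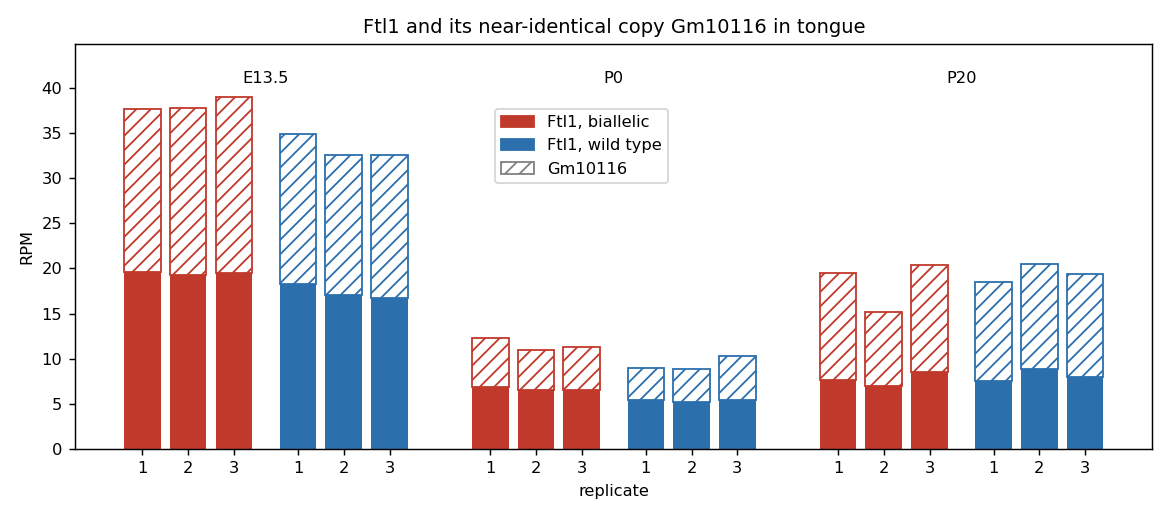
RPM (y axis, from 0) of Ftl1 (filled) with Gm10116 stacked on top (hatched) in each tongue library, biallelic left of wild type at each stage. The sums are 32.6 to 39.0 RPM at E13.5, 8.86 to 12.2 RPM at P0 and 15.1 to 20.5 RPM at P20.

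Hmox1 rose from E13.5 to P0 in both genotypes. It had 2.66, 2.33 and 7.52 RPM in biallelic tongues at E13.5, against 2.59, 4.41 and 3.72 RPM in wild type tongues. At P0 it had 7.12, 10.0 and 5.32 RPM in biallelic and 10.2, 8.08 and 10.4 RPM in wild type tongues, and at P20 11.3, 7.17 and 6.74 RPM and 7.22, 6.95 and 8.90 RPM. Biallelic replicate 3 was the highest E13.5 library, above 2 of the 6 libraries of P0. That library also had the highest sum of erythroid markers (10 of 18 listed for tongue), 1681 RPM beside 284 to 802 RPM in the other 5. The part of blood in the Hmox1 level of that library was not tested. The change from E13.5 to P0 was 1.01 in biallelic (SE 0.36, adjusted p = 0.0174) and 1.45 in wild type tongues (SE 0.36, adjusted p = 0.00154). In biallelic tongues it missed the threshold without E13.5 replicate 1 (adjusted p = 0.0823), without E13.5 replicate 2 (0.104) and without P0 replicate 2 (0.0871). Genotype differences were 0.05 at E13.5 (SE 0.42), -0.40 at P0 (SE 0.23) and 0.10 at P20 (SE 0.21). Blvrb stayed between 1.96 and 4.94 RPM over the 18 tongues. It rose from P0 to P20 in wild type tongues (0.69, SE 0.23, adjusted p = 0.0215), a call lost without any of 3 libraries (wild type replicates 2 and 3 at P0 and 3 at P20, adjusted p of 0.0634 to 0.0666) and under 2 of 3 other scalings (0.0922 and 0.0983); in biallelic tongues the change was 0.47 (adjusted p = 0.102).

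**Figure D5:**
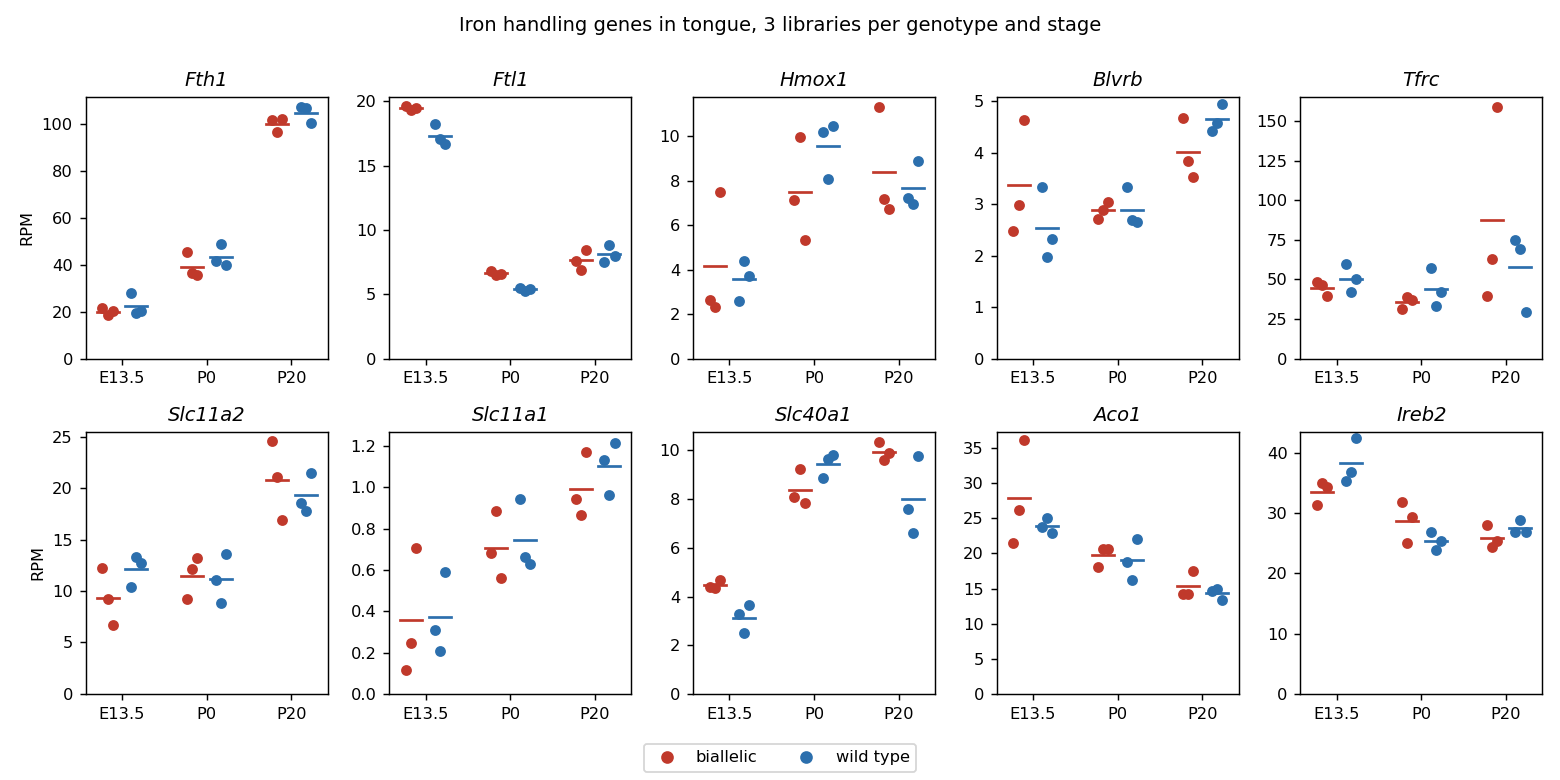
RPM (y axis, from 0) of the 10 genes in tongue at E13.5, P0 and P20, biallelic points left and wild type points right at each stage, 3 libraries each, with a line at the mean. Fth1 climbs to 96.9 to 107 RPM at P20, Ftl1 is highest at E13.5 at 16.7 to 19.7 RPM, and Tfrc spreads from 29.2 to 159 RPM at P20.

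Slc40a1 had a different genotype order at P0 than at E13.5 and P20. At E13.5 it had 4.39, 4.37 and 4.66 RPM in biallelic tongues, against 3.26, 2.50 and 3.64 RPM in wild type tongues. At P0 it had 8.09, 9.22 and 7.84 RPM in biallelic and 8.88, 9.65 and 9.81 RPM in wild type tongues, and at P20 10.4, 9.60 and 9.89 RPM and 7.61, 6.63 and 9.76 RPM. All biallelic tongues were above all wild type tongues at E13.5, and the groups overlapped at P0 and P20. The genotype differences were 0.53 at E13.5 (SE 0.23, unadjusted p = 0.0440, adjusted p = 0.992), -0.17 at P0 (SE 0.11) and 0.33 at P20 (SE 0.15, unadjusted p = 0.0605). The test of the change in genotype effect gave -0.71 between E13.5 and P0 (SE 0.22, unadjusted p = 0.00555, adjusted p = 0.743) and 0.51 between P0 and P20 (SE 0.22, unadjusted p = 0.0353, adjusted p = 1), and 0 of 13663 genes (0%) passed either test. From E13.5 to P0 Slc40a1 rose by 0.90 in biallelic (adjusted p = 5.90e-05) and by 1.61 in wild type tongues (adjusted p = 8.22e-08), SE 0.16 each.

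Among the importers, Slc11a2 rose from P0 to P20 in both genotypes, by 0.86 in biallelic (SE 0.22, adjusted p = 0.00398) and by 0.81 in wild type tongues (SE 0.22, adjusted p = 0.00612). It had 16.9 to 24.6 RPM in biallelic and 17.8 to 21.5 RPM in wild type tongues at P20, and 9.19 to 13.2 RPM and 8.83 to 13.6 RPM at P0. The gene overlaps Gm5475 on the other strand, which had at most 0.0634 RPM in a tongue and 0.893 RPM in the costal cells. Slc11a1 was near the limit of these libraries, at 5 to 62 reads per tongue (0.115 to 1.21 RPM). It reached 1 RPM in too few libraries to be tested at E13.5 or P0 alone. In the fit of all 18 libraries it passed the threshold from E13.5 to P0 in biallelic tongues (1.36, SE 0.51, adjusted p = 0.0239) and not in wild type tongues (1.12, adjusted p = 0.0571), and under quantile normalization the biallelic value was -0.14 (adjusted p = 0.771). The biallelic call was also lost without E13.5 replicate 1 (0.74, adjusted p = 0.161), E13.5 replicate 2 (1.28, adjusted p = 0.0597) or P0 replicate 2 (1.19, adjusted p = 0.0802), and the wild type change was called under 8 of 23 alternatives, so no difference between the genotypes is shown.

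Tfrc was uneven between libraries of P20. At P20 it had 39.8, 62.9 and 159 RPM in biallelic tongues, against 75.0, 68.9 and 29.2 RPM in wild type tongues. At E13.5 and P0 it stayed between 31.3 and 48.1 RPM in biallelic and between 33.3 and 59.6 RPM in wild type tongues. Biallelic replicate 3 at P20 was far above all others. That library also had the highest muscle marker sum of P20 (35212 RPM beside 22012 to 31814 RPM), the lowest epithelial sum (5527 beside 6735 to 9806 RPM) and the highest endothelial sum (466 beside 233 to 285 RPM), and the part of tissue makeup in its Tfrc level was not tested. The lowest muscle sums of P20, 22012 RPM in biallelic replicate 1 and 23434 RPM in wild type replicate 3, belonged to the libraries with the lowest Tfrc. With biallelic replicate 3 of P20, Tfrc rose from P0 to P20 in biallelic tongues (1.06, SE 0.40, adjusted p = 0.0377), and without that library the change was 0.50 (adjusted p = 0.227). The call was also lost without each of 4 other libraries, all 3 biallelic ones of P0 and biallelic replicate 2 of P20 (adjusted p of 0.0509 to 0.104), and under each of 3 other scalings (0.0791 to 0.0976). In wild type tongues the change was 0.30 (adjusted p = 0.55).

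The genes for the hairpin-binding proteins had their highest group means in tongue at E13.5. Ireb2 had 31.4, 35.0 and 34.4 RPM in biallelic tongues at E13.5, against 35.4, 36.9 and 42.5 RPM in wild type tongues, so all biallelic tongues were below all wild type tongues at that stage (difference -0.19, SE 0.13, adjusted p = 0.992). At P0 and P20 it had 24.4 to 31.8 RPM in biallelic and 23.9 to 28.8 RPM in wild type tongues, and the groups overlapped at both stages. From E13.5 to P0 it fell by 0.59 in wild type tongues (SE 0.11, adjusted p = 8.17e-05) and missed the threshold in biallelic tongues (-0.23, adjusted p = 0.0534). The biallelic change was called under 4 of 27 alternatives, with quantile normalization (-0.45, adjusted p = 0.000682) and without E13.5 biallelic replicate 1, E13.5 wild type replicate 3 or P0 biallelic replicate 1 (adjusted p of 0.0206 to 0.0485). The difference between these changes was 0.36 (SE 0.15, unadjusted p = 0.0295, adjusted p = 0.847). Aco1 had 21.5 to 36.1 RPM in biallelic and 22.9 to 25.0 RPM in wild type tongues at E13.5, 17.999 to 20.6 and 16.2 to 22.1 RPM at P0, and 14.2 to 17.5 and 13.3 to 14.9 RPM at P20. It fell from E13.5 to P0 in biallelic tongues (-0.47, adjusted p = 0.0134) and from P0 to P20 in wild type tongues (-0.40, adjusted p = 0.0487). The matching values in the other genotype were close, -0.34 (adjusted p = 0.0625) in wild type tongues at the earlier step and -0.37 (adjusted p = 0.0651) in biallelic tongues at the later one. The E13.5 to P0 call in biallelic tongues was lost without E13.5 biallelic replicate 3 (adjusted p = 0.0941) or P0 biallelic replicate 1 (0.0531), and the P0 to P20 call in wild type tongues in 14 of 18 fits that left out 1 library (adjusted p of up to 0.188).

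Read against all genes, the stage counts were ordinary. From E13.5 to P0, 4 of the 10 genes rose and 2 fell in biallelic tongues, where 39.7% of all tested genes rose and 37.6% fell; 3 rose and 2 fell in wild type tongues, where 37.9% rose and 39.9% fell. From P0 to P20, 3 rose and 0 fell in biallelic tongues (all genes 29.9% and 17.3%), and 4 rose and 1 fell in wild type tongues (all genes 31.7% and 14.9%). The median over all genes shifted from P0 to P20 by 0.18 in biallelic and 0.22 in wild type tongues, and after centring each library on its median the split of all calls turned, with 2889 up and 3480 down in biallelic and 2794 up and 3165 down in wild type tongues. The uncentred split was 4088 up and 2358 down in biallelic and 4332 up and 2034 down in wild type tongues. Under that centring Fth1 rose by 1.17 in biallelic and 1.06 in wild type tongues from P0 to P20, while Slc40a1 fell in wild type tongues (-0.48, adjusted p = 0.0158), where the uncentred change was -0.26 (adjusted p = 0.189). Stage comparisons also carry the change in tissue makeup shown by the muscle markers, whose part was not tested.

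For genotype within the tongue, 0 of 9 genes tested passed the threshold at E13.5 (0% of all genes), 0 of 9 at P0 (0.016%) and 0 of 10 at P20 (0%). Averaged over the 3 stages, 0 of 10 passed, beside 3 of 13663 genes (0.022%); the smallest unadjusted p was that of Slc40a1 (0.23, SE 0.09, unadjusted p = 0.0212, adjusted p = 1). Groups did not overlap for 3 of 9 genes at E13.5 (Slc40a1 and Ftl1 above, Ireb2 below wild type), for 1 of 9 at P0 (Ftl1 above) and for 0 of 10 at P20, where 10.1%, 8.9% and 6.89% of all tested genes did not overlap. None of the 10 genes lacked overlap in the same direction at all 3 stages.

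Other genes of the same pathways were taken from 6 lists. No list gene passed the genotype test in any tissue. In the costal cells the smallest unadjusted p of the storage list was that of Pcbp1, a chaperone that hands iron to ferritin, at 48.2 ± 9.59 RPM in biallelic and 109 ± 39.5 RPM in wild type animals (difference -1.12, SE 0.24, unadjusted p = 0.000333, adjusted p = 0.423), followed by Fbxl5, the iron-sensing part of the ligase that degrades Ireb2 protein (0.40, SE 0.22). In the uptake and export list these were Slc39a8, a zinc and iron importer, at 1.02 ± 0.698 and 6.47 ± 4.06 RPM (-2.88, SE 0.75, adjusted p = 0.423), and the iron-siderophore carrier Lcn2 (-0.65, SE 0.33), which is also on the neutrophil list. Glrx5 (-1.50, SE 0.47) and Hscb (-0.90, SE 0.44), both of iron-sulfur cluster assembly, and Slc25a38 (-1.19, SE 0.41), the mitochondrial glycine carrier of haem synthesis, were lower in biallelic animals, and Alas1, the first enzyme of haem synthesis (0.44, SE 0.20), was higher, none past the threshold. Among the haem transport and oxidative stress lists they were Hmox2 (0.41, SE 0.19), Hp (0.36, SE 0.20), Mt1 (-1.13, SE 0.37) and Mafk (0.54, SE 0.23). Without wild type animals 7, 8 and 9, Pcbp1 was at -0.54 (unadjusted p = 0.0340, adjusted p = 0.95), Glrx5 at -0.78, Slc25a38 at -0.76, Alas1 at 0.26 and Mafk at 0.44, while Hmox2 was at 0.00, Lcn2 at -0.12 and Mt1 at -0.28. Fbxl5 (-0.21) and Hscb (0.05) then had the other sign, and Slc39a8 reached 1 RPM in too few animals to be tested. In P0 tongues the smallest unadjusted p of these lists was that of Cybrd1, a ferric reductase (0.57, SE 0.14, unadjusted p = 0.00342, adjusted p = 1).

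Of all 65 list genes tested in the tongue, 22 rose and 28 fell from E13.5 to P0 in biallelic and 18 rose and 27 fell in wild type tongues, beside shares over all genes of 39.7% up and 37.6% down in biallelic and 37.9% up and 39.9% down in wild type tongues. From E13.5 to P0, of 15 tested uptake and export genes 11 rose and 3 fell in biallelic tongues and 10 rose and 2 fell in wild type tongues, with medians of 1.87 and 1.91 beside 0.05 and -0.04 over all genes. Steap3, the ferrireductase of the transferrin endosome, rose by 3.94 and 4.66 (SE 0.41 each), and Bmp6, which drives hepcidin in liver, by 2.72 and 2.15 (SE 0.23 each). The ferroxidase Hephl1 had 0.0187 to 0.248 RPM at E13.5 and 5.84 to 7.78 RPM at P0. Slc39a8 fell by 2.67 in each genotype (SE 0.29). Of 9 haem synthesis genes 2 rose and 7 fell in biallelic tongues and 2 rose and 6 fell in wild type tongues; Alas1 and Fech rose, and Alad (-2.03 and -1.69, SE 0.16) and Slc25a38 (-2.11 and -1.90, SE 0.14) were among those that fell. Of 14 genes of mitochondrial iron and iron-sulfur clusters 2 rose (Isca1 and Lyrm4) and 9 fell in each genotype. The oxidative stress list had 4 of 17 up and 6 down in biallelic and 2 up and 5 down in wild type tongues, and the storage list 0 of 4 up and 1 down and 0 up and 3 down. Erythroid markers, of which 10 of 18 were listed for tongue, summed to 284 to 1681 RPM at E13.5 and 2.32 to 4.15 RPM at P0. Among them the embryonic globins Hbb-y, Hbb-bh1 and Hba-x were at 0 reads in every P0 library. Fewer red cells and a change of globin genes cannot be told apart in this sum. The part of these markers in the haem synthesis genes was not tested.

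From P0 to P20, when 29.9% of all genes rose in biallelic and 31.7% in wild type tongues, 8 of the 14 mitochondrial iron genes rose and 0 fell in each genotype, with Iscu, the scaffold of cluster assembly, at 1.49 in biallelic and 1.11 in wild type tongues (SE 0.13). The oxidative stress list holds Nfe2l2, Bach1, Keap1, Maff and Mafk beside genes that Nrf2 or Bach1 are known to regulate along with Hmox1 and ferritin. Of its 17 tested genes, 11 rose and 1 fell in biallelic and 12 rose and 0 fell in wild type tongues. Nfe2l2, Keap1 and Mafk were among the risers in both genotypes. The list medians were 0.80 and 0.74 beside 0.18 and 0.22 over all genes. Nfe2l2, the gene for Nrf2 itself, rose by 1.83 and 1.79 (SE 0.24), and Slc7a11, the cystine importer, by 1.80 and 2.20 (SE 0.43). Hmox1 did not pass the threshold at this step, at 0.18 in biallelic and -0.32 in wild type tongues (SE 0.36, adjusted p = 0.707 and 0.492). Ncoa4, the carrier that delivers ferritin to lysosomes, rose by 0.97 and 0.89 (SE 0.23), and the other 3 storage genes had changes of 0.12 to 0.19 in biallelic tongues, none past the threshold, and of 0.32 to 0.51 in wild type tongues, all past it. Of the 6 genes of haem breakdown and transport, 3 rose (Cd163, Hmox2 and the haem transporter Slc48a1) and 1 fell (Abcb6) in each genotype at this step, and 3 rose and 2 fell in biallelic and 2 rose and 2 fell in wild type tongues from E13.5 to P0. Of the 15 uptake and export genes, 3 rose and 2 fell in biallelic and 4 rose and 2 fell in wild type tongues from P0 to P20. Of the 9 haem synthesis genes, 6 rose in biallelic and 4 in wild type tongues, and 0 fell in either. After centring each library on its median, the oxidative stress list had 10 up and 1 down in each genotype from P0 to P20 and the mitochondrial list 6 up and 0 down in biallelic and 7 up and 1 down in wild type tongues, where 21.1% and 20.4% of all genes rose and 25.5% and 23.2% fell. The storage list then had 1 up and 0 down in each genotype, so its genotype contrast in calls was lost. Under this centring, haem breakdown and transport had 3 up and 1 down in biallelic and 1 up and 1 down in wild type tongues. The uptake and export list had 2 up and 4 down and 2 up and 2 down, and haem synthesis 3 up and 0 down and 2 up and 0 down. The change of genotype effect called 0 of the 65 list genes at either step.

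Within groups, the animals and libraries varied together for some of the genes. On deviations from the genotype means over the 11 costal cell animals, Pearson's r was 0.83 between Hmox1 and Slc11a1, 0.74 between Hmox1 and Slc40a1 and -0.70 between Hmox1 and Tfrc. The genes most like Slc11a1 there were Itgb2 (r = 0.99), an integrin of white blood cells, and Adam8 (0.98). Those most like Hmox1 were Adap2 (0.97) and Cdkl3 (0.96), and those most like Slc40a1 were Lipa (0.95), the lysosomal acid lipase, and Rbm47 (0.93). Tfrc was nearest to Iscu (0.95) and Gpn3 (0.95), Fth1 to the glycolytic enzyme gene Tpi1 (0.90) and Prdx5 (0.89), and Ftl1 to Uhrf1bp1 (0.81) and Mettl17 (0.80). Blvrb was nearest to Ifitm3 (0.94) and 2810407C02Rik (0.93), Slc11a2 to Nelf (0.92) and Unk (0.91), Aco1 to Rabep2 (0.97), and Ireb2 to Rhoq (0.94) and Dapp1 (0.92). These are the highest of all tested genes, over animals that share depth and cell makeup, and wild type animals 7, 8 and 9 weigh on them.

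On deviations from the stage and genotype means over the 18 tongue libraries, the nearest genes were others. They were Zfp770 (r = 0.96) and Klhdc2 (0.92) for Tfrc, Tet1 (0.95) and Lims1 (0.95) for Aco1, Zfp932 (0.95) and Hspbap1 (0.94) for Slc11a2, and Clta (0.93) and St8sia5 (0.93) for Slc11a1. Blvrb was nearest to Efhd1 (0.92) and Vps26b (0.92), Fth1 to Ddx51 (0.91) and Plcd4 (0.87), and Hmox1 to Tex264 (0.91) and AI481877 (0.90). Ireb2 was nearest to Zc3h15 (0.85) and Sept7 (0.82), Slc40a1 to Eapp (0.85) and Zfp949 (0.84), and Ftl1 to Mycn (0.83) and Trib2 (0.83). Stage and genotype means were taken out first, so these are likenesses between single libraries. No gene was among the 2 nearest of the same member in both tissues.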

How the data were processed

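RNA-seq was measured in 18 tongue libraries and in sorted costal cells of 11 animals. The authors deposited 4 tables of log2 RPM values per gene, per the file headers; reads were trimmed with Trim Galore 0.4.2 and aligned to GRCm38 with TopHat2 2.1.0 (tongue) or HISAT2 (costal cells), per the submitters' processing notes. Which program counted the reads, and whether by strand, is not stated there. The smallest value of each library equals 0.9 reads, which stands for 0 reads, and every value below 1000 reads came out whole within 0.05 reads. Replicates are those the labels name; no columns were left over, and 4 biallelic animals with 2 labelled libraries have 1 column each.

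Differences were fitted with limma 3.58.1 (R 4.3.3, mean-variance trend) on the log2 values, over genes that reached 1 RPM in 3 or more of 6 tongue libraries of a stage, 3 of 18 tongue libraries or 5 of 11 animals. P-values were Benjamini-Hochberg adjusted over all genes tested, with a threshold of 0.05, and the fit was tested on simulated data. Per-kilobase values divide RPM by the length of the longest protein-coding transcript in GENCODE release M21. Near-identical copies were searched among the transcripts of that release with BLAST 2.17.0. Alternatives were other scalings, filters and a pseudocount of 1, no trend, voom on whole reads, a replicate block and leaving out libraries.

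The 10 genes, the 6 iron lists and the marker lists were chosen with earlier results of these data known. Named list genes are those past the threshold or the 2 of smallest p, and the nearest genes are the 2 of highest Pearson's r, of which 1 is not reported here.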

Additional observations from a re-analysis of the deposited data

Results flagged for a closer look

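Aco1 in the costal cells was 18.8 RPM in biallelic animal 6, beside 5.57 to 8.03 RPM in the other 5 biallelic animals. Its gap to the nearest animal was 0.698 of the range of the group on the log2 scale, above Dixon's critical value for 6 samples. It was the only such value on that scale among 20 groups of the 10 genes, and chance alone gives about 1 in 20. On the RPM scale the ratio was 0.813, and Aco1 in wild type animal 8 also passed (31.8 RPM beside 4.85 to 10.2 RPM in the other 4, ratio 0.801).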

How the results depend on the processing

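For the 10 genes, genotype calls stayed at 0 in every tissue under each alternative run. Of 2486 alternative values of 108 differences, 2391 kept their sign, and calls were lost in 45 and gained in 29. One called value reversed, Slc11a1 from E13.5 to P0 in biallelic tongues, at -0.1431 under quantile normalization, and the cause was not tested; this gene had 5 to 62 reads per tongue, which limits it. Genes called between genotypes at P0 numbered 2, but 1 under median centring, quantile normalization, scaling to the listed genes or no filter, 0 without trend, with voom or with the replicate block, and 0 to 4 when 1 library was left out. Without a filter, which took in all 27825 genes, genes called numbered 19861 in biallelic and 20373 in wild type tongues from E13.5 to P0. From P0 to P20 they numbered 15070 in wild type tongues, while biallelic tongues had 3410 to 7000 over all 27 alternatives. Without a filter, genes at 0 reads, 8316 to 12088 per tongue library, entered at the value of 0.9 reads. In RPM that value depends on the read total of the library. The cause of the higher counts was not tested. The change of genotype effect from P0 to P20 gave 1 gene under median centring or scaling to the listed genes and 0 to 1 with 1 library left out, that from E13.5 to P0 gave 0 to 8, and the average over stages gave 5 without trend and 3 to 9. With 1 library left out, 4 to 7 of the 10 genes were called from E13.5 to P0 in biallelic and 5 to 7 in wild type tongues, and 2 to 4 and 3 to 5 from P0 to P20.

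Deviations of same-numbered biallelic and wild type tongues correlated at 0.16, 0.04 and 0.14 at E13.5 and at -0.34, -0.49 and 0.36 at P0. At P20 these values were -0.31, -0.29 and -0.65. Pairs with different numbers lay between -0.14 and 0.05 in E13.5 tongues. In P0 tongues such pairs reached from -0.54 up to 0.68, and in P20 tongues from -0.53 up to 0.62. The highest value of each of these later stages thus belonged to a pair with different numbers. The main fits did not use this likeness between genotypes, and its cause was not tested. With the replicate block, genes called from P0 to P20 numbered 3410 in biallelic and 3348 in wild type tongues, and 2 of the 10 genes were called in wild type tongues. Ireb2 from E13.5 to P0 in wild type tongues was then at -0.37 (adjusted p = 0.0573).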
